A study of Mus musculus with 60 samples.

Results

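The comparison described here is the step from the 4-cell to the 8-cell stage in mouse embryos made by nuclear transfer (NT). Its members are 12 single-embryo RNA-seq libraries of the 60 in the series, made from 6 embryos with 4 cells and 6 embryos with 8 cells. They were chosen by their labels, as the 4-cell and 8-cell libraries of both NT types, and each type gave 3 libraries per stage. NTC embryos received the nucleus of a cumulus cell (CC), a somatic cell that surrounds the oocyte, and NTM embryos received the nucleus of a mouse embryonic fibroblast (MEF). Donor cells and recipient oocytes of all 12 embryos came from BDF1 mice, the F1 of C57BL/6 and DBA2, and the oocytes had lost their own spindle. Every reconstructed embryo was activated with SrCl2 in cytochalasin B and Scriptaid, an inhibitor of histone deacetylases, so the 2 stages share that treatment. The embryos were cultured in G1 medium and, after the 4-cell stage, in G2, so stage, embryo age and medium cannot be told apart. Each library is 1 embryo picked by its morphology, and embryos of a stage came from at least 3 independent experiments according to the labels. The p-values therefore measure the spread between picked embryos. The 6 in vivo libraries of the same stages, from C57BL/6 females mated with DBA2 males and collected without culture, were used for comparison.

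Between the 4-cell and the 8-cell stage, the mouse embryo uses up the last RNA stored by the oocyte and runs on its own transcripts. The 8-cell embryo then compacts: its cells flatten against each other and gain an apical and a basal side, which sets apart the outer cells, the future trophectoderm, from the inner ones. Transcription factors of pluripotency and the first keratins of the trophectoderm are known to build up at about this time. In an NT embryo the same steps have to be carried out by a genome that came from a differentiated cell.

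Summed markers of the donor cells were lower in the 12 libraries than in the donor cells, but not absent. The depth, as reads on genes recovered from the RPKM values, was 9543817 to 18436508 reads in the 4-cell libraries and 5758138 to 25632952 in the 8-cell libraries, so that 3 reads on a transcript of 2000 nt equal 0.0585 to 0.261 RPKM (reads scaled to exon length and library size). A value of 0 allows up to that level by counting alone. No molecular identifiers were used, so losses of RNA ahead of the amplification come on top of this limit. The depth, and shares of reads taken from it, are approximate. Reads implied by the exon lengths summed to 110 to 114% of it in these 12 libraries. The 15 fibroblast markers summed to 0 to 22.3 RPKM in the NT libraries against 9924 to 13104 in MEFs, and 5 of them (Col3a1, Thy1, Lum, Col5a1 and Col6a1) were at 0 in all 12. The other 10 were above 0 in at least 1 library. Twist2 was above 0 in 3 libraries, all of NTC 8-cell embryos, at up to 21.2 RPKM (means of 30.2 in MEFs and 0.00946 in CCs). Dcn was above 0 in 4 libraries at up to 19.4 RPKM, highest in NTM 4-cell replicate 1, and Col1a1 in 3 at up to 1.38 RPKM. The 15 cumulus markers summed to 3.62 to 59.6 RPKM against 560 to 1644 in CCs and 545 to 1271 in MEFs, so this list does not set the donor types apart. Inha, Nr5a1, Fshr and Hsd3b1 were at 0 in all 12, while Amhr2, the receptor of anti-Müllerian hormone, was above 0 in all of them. Amhr2 reached 56.0 RPKM in NTM 4-cell replicate 2 and 55.7 RPKM in NTC 4-cell replicate 3 (means of 7.39 in CCs and 0.00395 in MEFs). Kitl reached 38.6 RPKM in NTC 8-cell replicate 3, with means of 0.0120 RPKM in CCs and 15.5 RPKM in MEFs. The part of donor RNA in the results was not tested.

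The 16 mitochondrial genes of the table took a large part of the summed RPKM in both stages. Their share was 48.9 to 59.3% at the 4-cell stage (53.9% ± 3.56, SD, n = 6) and 52.4 to 64.4% at the 8-cell stage (57.9% ± 4.11, n = 6), and the ranges overlapped. The difference of 3.94 percentage points had p = 0.115 in an exact permutation test within NT type (400 arrangements, two-sided). In vivo 4-cell embryos stood far below all of these at 10.7 to 15.9%, and in vivo 8-cell embryos were at 50.9 to 62.4%. As a share of reads, the mitochondrial genes took 29.6 to 40.4% in NT 4-cell and 32.4 to 46.2% in NT 8-cell libraries. That difference was 4.98 percentage points (p = 0.075 in the same permutation test). The number of autosomal genes above 0 was 8684 to 11487 in NT 4-cell and 9937 to 12240 in NT 8-cell embryos, a mean difference of 820 genes (exact p = 0.105). With detection at 1 RPKM or more, this difference was -34.7 genes (exact p = 0.915). In vivo, the number above 0 went from 12998 to 13390 down to 9529 to 9886. NTM 4-cell replicate 2 and NTC 8-cell replicate 3 stood apart from the other libraries on the second and on the third principal component (at -113 and -90.1). Counts are given with and without them.

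**Figure D1:**
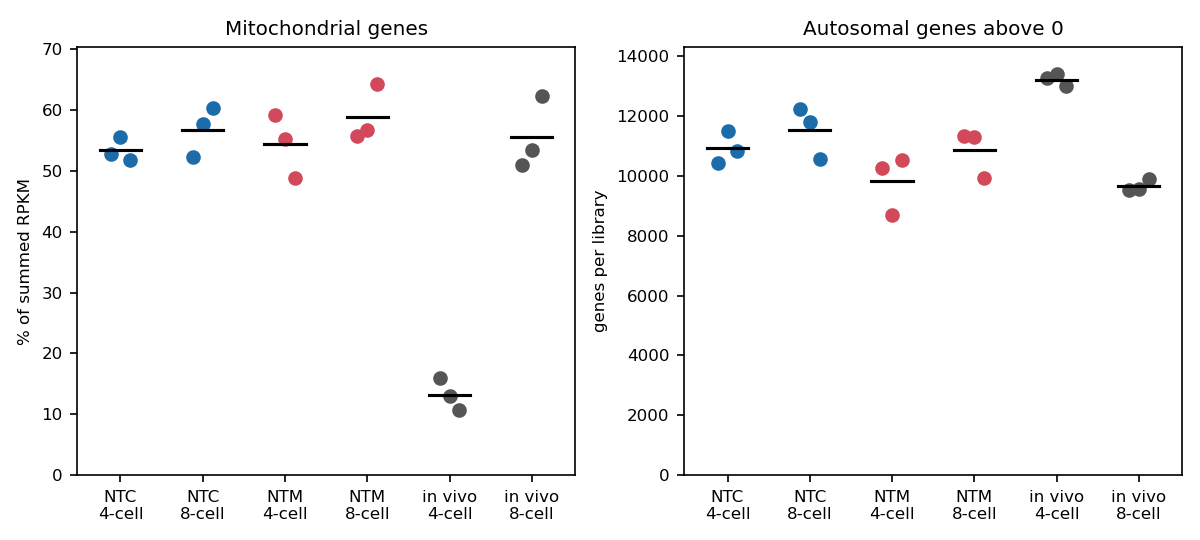
Share of the summed RPKM taken by mitochondrial genes (left, %) and autosomal genes above 0 per library (right), with 1 point per library and a bar at the mean of 3. The NT 4-cell and 8-cell libraries overlap in both measures, and the in vivo 4-cell libraries lie apart at 10.7 to 15.9% and 12998 to 13390 genes.

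Of 25848 autosomal genes in the table, 10092 had a mean of at least 0.5 RPKM over the 12 libraries and were tested, and 15756 were too low to be tested. A gene was called at a Benjamini-Hochberg adjusted p below 0.05 with a change of at least 1 on the log2(RPKM + 1) scale, in a fit with NT type as a block. By this rule 191 genes were called, 1.89% of those tested. The number was 732 with one fit over all 20 groups and 77 without the filter on low values. Of the 191, 70 rose (0.694%) and 121 fell (1.2%). At an unadjusted p under 0.05 there were 1588 genes. All 191 changed in the same direction in NTC and in NTM embryos, as did 5612 of the 9901 tested genes that were not called. The calls rest on the mean change of both types, which favours genes of the same sign, so nothing is read from this. The median of all tested genes was -0.17, and this shift bears on the split: after scaling by median ratios, which brings the median to 0.01, 108 genes rose and 60 fell, with 130 of the 168 among the 191. All 191 kept their sign under that scaling, which their choice in the same libraries favours.

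The called genes were mostly large changes. Rises had a median of 2.58 on the log2 scale, from a median of 1.58 RPKM in 4-cell to 19.6 RPKM in 8-cell embryos. Falls had a median of -2.16, from 31.5 to 5.01 RPKM. Protein-coding genes made up 60 of the 70 rises and 101 of the 121 falls, and predicted genes without a proper name 12 (17.1%) and 24 (19.8%) of them. Among tested genes that were not called, 89.7% were protein-coding and 12.6% had predicted names. Each library is a whole embryo, so fewer cells with a transcript and less of it per cell cannot be told apart. Complete separation of the 6 and 6 libraries was seen for 205 tested genes (2.03%), among them 33 of the rises and 65 of the falls. Without the pair of libraries that stood apart, 124 genes were called, 38 up and 86 down, and 94 of them were among the 191. Single libraries moved the count as well, from 80 without NTM 8-cell replicate 2 to 240 without NTM 4-cell replicate 1. Within NTC alone 5 genes passed, all down, and within NTM alone 22 rose and 17 fell.

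Among the 12 largest named rises were enzymes of detoxification and lipid handling. Akr1b8 (chromosome 6), an aldo-keto reductase that removes reactive aldehydes, had 0 to 5.48 RPKM (median 0.105) in 4-cell and 3.98 to 61.1 RPKM (median 33.3) in 8-cell embryos. It rose by 4.19 ± 0.56 (log2, SE; adjusted p = 0.00109), and the ranges overlapped through a single 4-cell library, NTM replicate 1. Akr1c14 (chromosome 13), a related reductase of steroids, was at 0 to 3.85 RPKM (median 0) and then at 1.86 to 62.9 RPKM (median 41.1). Its rise was 4.04 ± 0.68 (adjusted p = 0.00651), and again NTM 4-cell replicate 1 was the one that reached into the 8-cell range. Cat (chromosome 2), the catalase that breaks down hydrogen peroxide, went from 0 to 8.14 RPKM (median 0.498) to 6.62 to 107 RPKM (median 26.2). Both ranges met at their ends only, and the rise was 3.57 ± 0.71 (adjusted p = 0.0157). Cyp2s1 (chromosome 7), a cytochrome P450, had 0 to 9.06 RPKM (median 3.92) and then 18.9 to 63.4 RPKM (median 43.9). Every 8-cell library was above every 4-cell library, with a rise of 3.38 ± 0.56 (adjusted p = 0.00558).

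Smpdl3a (chromosome 10), a secreted phosphodiesterase of the acid sphingomyelinase family, was nearly silent at the 4-cell stage with 0 to 0.788 RPKM (median 0.0532). It reached 1.56 to 78.3 RPKM (median 14.2) in 8-cell embryos, a rise of 4.02 ± 0.60 (adjusted p = 0.00242) without overlap. Nppb (chromosome 4), which encodes a natriuretic peptide, had 0 to 0.486 RPKM (median 0) and then 2.22 to 209 RPKM (median 8.84). Its groups were separate as well, and the rise was 3.97 ± 0.75 (adjusted p = 0.0127). Mir8091 (chromosome 19), a microRNA locus whose reads cannot be told apart from those of an overlapping transcript, went from 0 to 0.754 RPKM (median 0) to 0.492 to 49.1 RPKM (median 22.7; log2 change 3.74 ± 0.65, adjusted p = 0.00737). The overlap came from the highest 4-cell and the lowest 8-cell library, both NTC.

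The other large named rises included regulators and scaffold proteins. Id3 (chromosome 4), a helix-loop-helix inhibitor of differentiation and a known BMP target, was at 1.79 to 10.2 RPKM (median 3.96) in 4-cell and 16.2 to 118 RPKM (median 43.2) in 8-cell embryos. All 8-cell libraries exceeded all 4-cell libraries, with a rise of 3.09 ± 0.47 (adjusted p = 0.00285). Spic (chromosome 10), an ETS transcription factor, went from 0.0799 to 18 RPKM (median 4.13) to 15.4 to 109 RPKM (median 46.3), a rise of 3.10 ± 0.67 (adjusted p = 0.0254). Csrp1 (chromosome 1), a LIM protein of the actin cytoskeleton, had 0.0523 to 50.8 RPKM (median 9.36) and then 30.4 to 252 RPKM (median 85; rise 3.49 ± 0.74, adjusted p = 0.0233). In both genes NTM 4-cell replicate 1 was the one 4-cell library inside the 8-cell range. Lrpap1 (chromosome 5), the chaperone of lipoprotein receptors, rose by 3.25 ± 0.61 (adjusted p = 0.0122) from 1.44 to 52.1 RPKM (median 4.16) to 19.2 to 143 RPKM (median 71.8). Grtp1 (chromosome 8), a TBC-domain protein, rose by 3.30 ± 0.76 (adjusted p = 0.0341) from 0 to 19.3 RPKM (median 0.112) to 5.74 to 46.3 RPKM (median 30.4). The 8-cell range was reached by 1 of the 4-cell libraries for Lrpap1 and by 2 for Grtp1.

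The largest named fall was that of Btg4. Btg4 (chromosome 9), the adaptor that brings a deadenylase to maternal mRNA, had 22.3 to 232 RPKM (median 37.4) in 4-cell and 0 to 10.8 RPKM (median 0) in 8-cell embryos. It fell by 5.10 on the log2 scale (SE 0.69, adjusted p = 0.00118) with no overlap, and only NTC 8-cell replicate 1 kept more than a trace. Hexdc (chromosome 11), a hexosaminidase, had 8.48 to 38.9 RPKM (median 17.7) and then 0.0330 to 6.57 RPKM (median 0.472), a change of -3.27 ± 0.46 (adjusted p = 0.00142). Gyg (chromosome 3), the glycogenin that primes glycogen, went from 13.2 to 102 RPKM (median 59.6) to 0.0166 to 7.93 RPKM (median 2.50). Its change was -3.86 ± 0.63 (adjusted p = 0.00502), and in both genes every 8-cell library was below every 4-cell library. Bcl2l10 (chromosome 9), an oocyte member of the Bcl2 family, had 5.87 to 111 RPKM (median 13.6) and then 0.168 to 4.41 RPKM (median 0.628), also without overlap (-3.30 ± 0.64, adjusted p = 0.0140).

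Other named falls are known as genes of the oocyte. H1foo (chromosome 6), the linker histone of the oocyte, was at 7.0 to 26.6 RPKM (median 16.1) and then at 0 to 1.88 RPKM (median 0.922). It fell by 3.17 (SE 0.46, adjusted p = 0.00194), and its groups were separate. Obox5 (chromosome 7), an oocyte homeobox gene, had 5.51 to 52.4 RPKM (median 9.04) and then 0 to 2.60 RPKM (median 0.0140; -3.29 ± 0.53, adjusted p = 0.00502), with no overlap. Khdc1b (chromosome 1), a KH-domain gene of the oocyte, was the most abundant of them with 61.5 to 243 RPKM (median 116), and dropped to 3.66 to 31.3 RPKM (median 14.7). Its change of -3.08 ± 0.40 had an adjusted p of 8.04e-04, and the groups did not overlap. Oog1 (chromosome 12), an oocyte leucine-rich repeat gene, had 2.36 to 93.3 RPKM (median 33.5) and then 0 to 9.84 RPKM (median 0.309), with overlap through the 2 lowest 4-cell libraries, both NTM (-3.20 ± 0.64, adjusted p = 0.0161). Obox5, Oog1 and Khdc1b belong to gene families with near-identical copies, and their values are uncertain where reads could be split between copies. Gdf9 (chromosome 11), a growth factor secreted by the oocyte, had 3.83 to 17.2 RPKM (median 9.76) and then 0.130 to 4.76 RPKM (median 0.382). It fell by 2.48 (SE 0.48, adjusted p = 0.0130), with a single 8-cell library in the 4-cell range.

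The other 4 of the 12 largest named falls are in none of the gene lists, and neither are Hexdc, Gyg and Khdc1b. Ripk3 (chromosome 14), the kinase of necroptosis, had 0.205 to 35.8 RPKM (median 23.3) in 4-cell embryos, where NTM replicate 1 was the low one, and 0 to 0.177 RPKM (median 0) in 8-cell embryos. Its change was -3.79 ± 0.70 (adjusted p = 0.0119). The other 4-cell embryos, at 9.87 RPKM or more, were above every 8-cell embryo, while 0.205 and the highest 8-cell value of 0.177 RPKM are at the level of a few reads and cannot be told apart. Bfsp1 (chromosome 2), a filament protein known from the lens, went from 1.18 to 55.8 RPKM (median 21.5) to 0 to 5.18 RPKM (median 0.238; -3.49 ± 0.72, adjusted p = 0.0182), and its groups overlapped. Its mean at the 2-cell stage was 197 RPKM in NTC and 240 RPKM in NTM embryos. Mcrip1 (chromosome 11), a partner of a corepressor, went from 0.0897 to 36.3 RPKM (median 17.5) to 0 to 6.75 RPKM (median 0.262), also with overlap (-2.93 ± 0.66, adjusted p = 0.0312). Ccdc85b (chromosome 19), a small coiled-coil protein, went from 3.03 to 37.1 RPKM (median 8.93) to 0 to 2.92 RPKM (median 0.141) with separate groups (-2.88 ± 0.59, adjusted p = 0.0176).

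**Figure D2:**
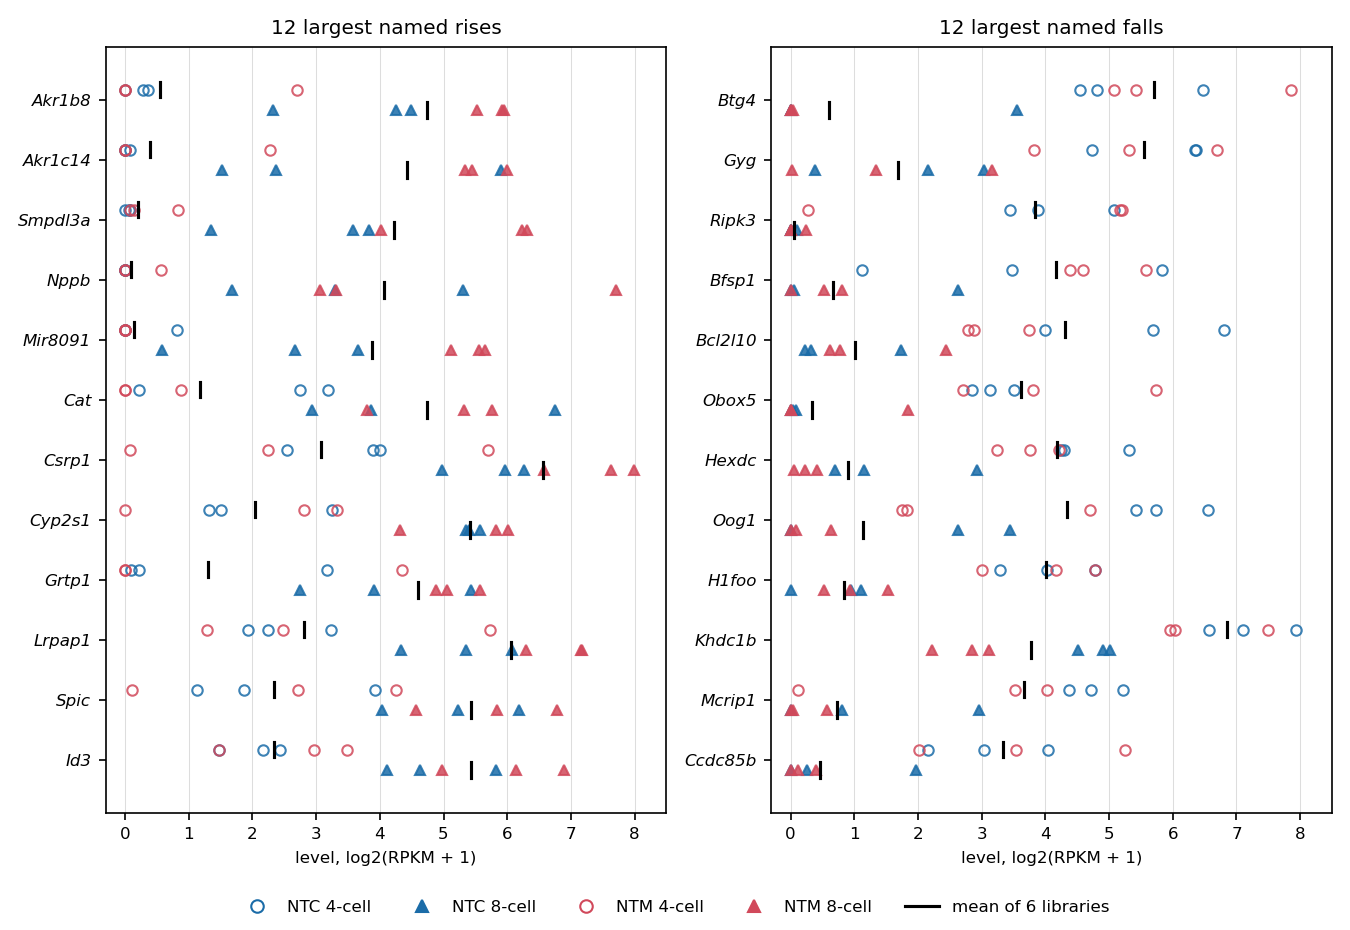
Levels of the 12 largest named rises (left) and falls (right) in each of the 12 NT libraries, on the log2(RPKM + 1) scale (open circles 4-cell, filled triangles 8-cell, blue NTC, red NTM, black bar mean of 6). The 8-cell points lie to the right in the left panel and to the left in the right panel, and overlaps such as Akr1b8 rest on single libraries.

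How far these calls rest on single embryos differs between genes. Of the 42 named genes called in this comparison (the 24 above and 18 from gene lists), 20 remained called whichever of the 12 libraries was left out. They are Akr1b8, Akr1c14, Smpdl3a, Nppb, Mir8091, Cyp2s1, Id3, Lrpap1, Dab2 and Stard4 among the rises, and Btg4, Khdc1b, Hexdc, H1foo, Obox5, Gyg, Ripk3, Bcl2l10, Gdf9 and Eif1b among the falls. Grtp1 lost its call without any of 9 single libraries and Mcrip1 without any of 10. Spic lost it without 5, Csrp1 without 3, and Cat and Ccdc85b only without NTM 8-cell replicate 2. Bfsp1 lost it only without NTM 8-cell replicate 1 and Oog1 only without NTC 4-cell replicate 3. No gene changed direction in these fits, which the choice of the genes in the same libraries favours.

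The promoter sequences of 4 of these genes are given because they are the leading rise and fall (Akr1b8 and Btg4) and a rise and a fall with a median of 0 at one stage (Nppb in 4-cell, Ripk3 in 8-cell embryos). Each is the 250 bases upstream of the RefSeq gene start on the gene's strand in GRCm38.p6, and capitals mark the letters of a searched motif, read on either strand. Akr1b8 lies at chr6:34353896-34354145 (plus), Nppb at chr4:147985650-147985899 (plus), Btg4 at chr9:51115751-51116000 (plus) and Ripk3 at chr14:55788858-55789107 (minus).
Akr1b8: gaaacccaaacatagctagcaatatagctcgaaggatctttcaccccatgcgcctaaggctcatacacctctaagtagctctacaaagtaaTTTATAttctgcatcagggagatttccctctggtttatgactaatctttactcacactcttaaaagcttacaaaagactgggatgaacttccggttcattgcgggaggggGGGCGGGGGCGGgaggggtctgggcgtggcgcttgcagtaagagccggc
Nppb: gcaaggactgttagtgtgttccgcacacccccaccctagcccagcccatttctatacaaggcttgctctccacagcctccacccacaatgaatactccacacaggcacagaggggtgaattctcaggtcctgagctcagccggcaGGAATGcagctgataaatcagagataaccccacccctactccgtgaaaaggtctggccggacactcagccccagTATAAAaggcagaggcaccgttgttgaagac
Btg4: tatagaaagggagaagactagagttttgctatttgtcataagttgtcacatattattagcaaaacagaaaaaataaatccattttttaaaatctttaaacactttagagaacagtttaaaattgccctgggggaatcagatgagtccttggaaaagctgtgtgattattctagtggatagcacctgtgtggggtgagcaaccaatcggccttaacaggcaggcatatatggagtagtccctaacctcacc
Ripk3: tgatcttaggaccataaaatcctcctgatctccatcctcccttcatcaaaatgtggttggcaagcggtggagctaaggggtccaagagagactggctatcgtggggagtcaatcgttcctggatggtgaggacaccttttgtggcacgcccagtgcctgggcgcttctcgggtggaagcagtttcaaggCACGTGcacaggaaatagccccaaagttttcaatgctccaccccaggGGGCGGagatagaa
The letters of the TATA box (TATAAA) were found in Nppb at base -31, counted from the gene start, and in reverse in Akr1b8 at -159. Nppb also holds a TEAD site (GGAATG) at -105, Akr1b8 a pair of GC boxes (GGGCGG) at -49 and -43, and Ripk3 an E-box (CACGTG) at -61 and a GC box at -14. Btg4 holds none of the 5 motifs searched.

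Promoters were matched for 50 of the 70 rises, 88 of the 121 falls and 7444 of all tested genes. A TATA box was found in 8.0% of the rises, 7.95% of the falls and 7.80% of all tested genes, and a GC box in 60.0%, 53.4% and 64.1%. The E-box was present in 10%, 14.8% and 10.3%, and the TEAD site in 18%, 15.9% and 12%. The AP-1 site (TGANTCA) was in 5 of the 50 rises (10%), in 0 of the 88 falls and in 4.92% of all tested genes. Among all autosomal promoters of the table, the shares were 14.4% (TATA box), 35.7% (GC box), 6.88% (E-box), 7.88% (AP-1) and 14.2% (TEAD). These are letter matches in one window and say nothing of binding.

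In each list of the first lineages, 1 gene passed the test. That is 4.55% of the pluripotency, 5.56% of the trophectoderm and 10% of the primitive endoderm list, beside 1.89% of all tested genes. With lists this short, a single call sets these shares. Of 22 tested pluripotency factors, 1 rose and none fell. Of these 22, 16 were higher, where 40.5% of all tested genes were higher, and their median change was 0.72, against -0.17 over all tested genes. Nanog, a core factor of the inner cell mass, had 0 to 3.87 RPKM (median 0.0987) in 4-cell and 1.46 to 19.9 RPKM (median 7.21) in 8-cell embryos, with overlap (log2 change 2.50 ± 0.60, adjusted p = 0.0392). Of 18 trophectoderm genes, 1 rose and none fell, 16 were higher, and the median was 0.74. Krt18, a keratin of the trophectoderm, had 0 to 5.05 RPKM (median 0.428) and then 3.49 to 56.9 RPKM (median 12.8; 3.09 ± 0.65, adjusted p = 0.0220), overlapping at the ends. Among 10 genes of the primitive endoderm and FGF signalling, 1 rose and the median was 0.22. Dab2, an endocytic adaptor of the primitive endoderm, had 0 to 1.86 RPKM (median 0.653) and then 4.79 to 25.9 RPKM (median 15.3), and each 8-cell embryo was above each 4-cell embryo (3.03 ± 0.52, adjusted p = 0.00737). Its means at the 2-cell stage were 26.5 RPKM in NTC and 25.8 RPKM in NTM embryos, so its 4-cell level was a low point. Nanog lost its call without any of 9 single libraries, and Krt18 without NTC 4-cell replicate 3 or NTM 8-cell replicate 2.

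Compaction genes held a single call (3.57%, beside 1.89% of all tested genes). Of 28 genes of compaction, polarity and junctions, 1 fell and none rose (median 0.22, 20 higher). Radixin (Rdx), which links actin to the membrane, went from 6.90 to 38.0 RPKM (median 15.0) to 0 to 8.33 RPKM (median 3.35), with overlap (-2.17 ± 0.54, adjusted p = 0.0485), and the call was lost without any of 10 single libraries. None of 16 tested Hippo pathway genes was called (median -0.11). The lowest p-values there were those of the kinase adaptor Mob1b, at 2.86 to 17.2 RPKM and then 16.3 to 35.4 RPKM (1.08, adjusted p = 0.214), and of the scaffold Sav1, at 0.860 to 19.5 and then 0.0185 to 9.98 RPKM (-1.69, adjusted p = 0.216).

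The maternal list held 4 calls (13.8%, beside 1.89% of all tested genes). Of 29 tested oocyte and maternal genes, 4 fell (Btg4, Oog1, H1foo and Gdf9) and none rose, 24 were lower (59.5% of all tested genes were), and the median change was -0.74 against -0.17 over all. Of 18 tested genes of the genome activation at the 2-cell stage, Obox5 fell and none rose (median -0.20). The list of p53 targets and apoptosis genes had a median of -0.49 over 32 genes, with Bcl2l10 as the one fall. Among 44 cyclins, kinases and other mitotic genes, E2f5, a repressor-type E2F known from exit of the cycle, was the one fall. It had 16.5 to 86.8 RPKM (median 55.3) in 4-cell and 0.105 to 26.9 RPKM (median 5.95) in 8-cell embryos, with overlap (-2.88 ± 0.67, adjusted p = 0.0348), and lost its call without any of 9 single libraries. The median of that list was -0.20.

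DNA replication and protein synthesis held 1 call. The share was 0% of the replication and cytosolic ribosomal protein genes and 2.33% of the initiation factors, beside 1.89% of all tested genes. None of 47 tested replication genes was called (median -0.03). Gins1, a part of the replicative helicase, had 12.9 to 56.4 and then 43.8 to 101 RPKM (1.17, adjusted p = 0.147), and the chromatin assembly subunit Chaf1b had 0.102 to 6.30 and then 4.72 to 22.3 RPKM (1.42, adjusted p = 0.149). The 76 cytosolic ribosomal protein genes had a median of 0.08 with no call. Rps3a1 was at 1201 to 2505 RPKM and then at 1853 to 2951 RPKM (0.54, adjusted p = 0.0830), and Rpl4 at 1198 to 1702 and then 1416 to 2277 RPKM (0.46, adjusted p = 0.133). Of 43 translation initiation factors, 1 fell (median -0.11): Eif1b, a factor of start codon selection, had 30.0 to 72.9 RPKM (median 38.9) and then 3.71 to 15.9 RPKM (median 11.5). Its groups did not overlap (-2.03 ± 0.38, adjusted p = 0.0122).

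Ribosome biogenesis held 2 calls (2.60%) and the mitochondrial ribosomal proteins 2 (2.82%), beside 1.89% of all tested genes. Of 77 nucleolar genes of this process 2 fell and none rose, and 58 were lower (median -0.30), where 59.5% of all tested genes were lower. Nol10 went from 14.5 to 47.9 RPKM (median 36.8) to 1.68 to 16.2 RPKM (median 9.68; -2.03 ± 0.47, adjusted p = 0.0350), and Ppan from 25.5 to 107 RPKM (median 62.0) to 11.6 to 35.9 RPKM (median 17.4; -1.61 ± 0.37, adjusted p = 0.0341). Both act in the maturation of ribosomal subunits, and both overlapped between stages. Of 71 mitochondrial ribosomal protein genes 49 were lower (median -0.28) and 2 fell, Mrpl38 by 2.03 (SE 0.48, adjusted p = 0.0386) from 1.03 to 12.3 RPKM (median 6.21) to 0.204 to 0.857 RPKM (median 0.565), and Mrpl36 by 1.33 (SE 0.33, adjusted p = 0.0464) from 105.7 to 237 RPKM (median 181) to 35.2 to 105.7 RPKM (median 78.3). These 2 did not overlap. Nol10 lost its call without any of 8 single libraries, Ppan of 7, and Mrpl38 and Mrpl36 of 10 each. After median-ratio scaling these 4 genes were no longer called, nor were Rdx, E2f5, Msl2 and Psme3.

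Metabolic lists held single calls in both directions. The shares called were 7.69% (glycolysis), 3.85% (sterols), 3.23% (oxidative stress) and 0% (respiratory chain), beside 1.89% of all tested genes. Of 26 genes of glycolysis and pyruvate metabolism 1 rose and 1 fell (median -0.02). Slc2a3, the glucose transporter GLUT3, had 0.0233 to 10.4 RPKM (median 0.352) and then 4.24 to 21.1 RPKM (median 14.9; 2.38 ± 0.53, adjusted p = 0.0264). Ldhb, the lactate dehydrogenase subunit stored in the oocyte, went down from 9.61 to 29.2 RPKM (median 12.4) to 0.357 to 5.49 RPKM (median 1.87; -2.26 ± 0.47, adjusted p = 0.0196). The groups overlapped for Slc2a3 and were separate for Ldhb. Of 26 genes of sterol and fatty acid synthesis, Stard4, a carrier of cholesterol, was the one rise (median of the list 0.17). It had 0 to 3.19 RPKM (median 0.0136) and then 2.83 to 16.9 RPKM (median 8.37), overlapping at the ends (2.66 ± 0.50, adjusted p = 0.0122). Among 31 genes of oxidative stress, Cat was the one rise and the median was -0.16. The nuclear respiratory chain list (69 genes) had no call and a median of -0.10, with Atp5f1 at 90.3 to 140 and then 57.0 to 88.0 RPKM (-0.58, adjusted p = 0.253) and Cox4i1 at 17 to 22.4 and then 4.22 to 18.4 RPKM (-0.92, adjusted p = 0.256). Slc2a3 lost its call without any of 7 single libraries, and Ldhb without NTC 4-cell replicate 3 or NTM 8-cell replicate 1.

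The lists of stress, folding and protein breakdown held a single call. It was 2.27% of the proteasome list and 0% of the others, beside 1.89% of all tested genes. Among 31 genes of the heat shock and unfolded protein responses (median -0.27), Hsp90aa1, an inducible chaperone, had 946 to 1870 RPKM (median 1106) and then 1505 to 3695 RPKM (median 1841). Its adjusted p was 0.0157, but its change of 0.81 was below the fold threshold. Hspa8 had 13.3 to 75.5 and then 35.1 to 114 RPKM (1.59, adjusted p = 0.0585). The 25 genes of amino acid transport and the ATF4 response had no call (median 0.11), with Psph at -1.42 (adjusted p = 0.150) and Trib3 at 1.49 (adjusted p = 0.182). The 7 subunits of the CCT chaperonin had a median of 0.28 and no call, with Tcp1 at -1.08 (adjusted p = 0.140) and Cct2 at 0.43 (adjusted p = 0.530). Of 44 proteasome subunits (median 0.05), 1 fell: Psme3, an activator of the nuclear proteasome, from 30.1 to 114 RPKM (median 69.2) to 17.9 to 32.3 RPKM (median 26.8), overlapping at the ends (-1.37 ± 0.34, adjusted p = 0.0499). It lost the call without any of 11 single libraries.

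Chromatin genes gave 2 calls. They are 5.26% of the DNA methylation and 3.45% of the histone acetylation list, and 0% of the other chromatin lists, beside 1.89% of all tested genes. Of 19 genes of DNA methylation and imprint protection (median -0.26), Dnmt3b, a de novo methyltransferase, rose from 0 to 4.29 RPKM (median 0.303) to 4.32 to 13.1 RPKM (median 8.55) without overlap (2.40 ± 0.52, adjusted p = 0.0254). Of 29 histone acetyltransferase and deacetylase genes (median -0.21), Msl2, a ubiquitin ligase of the MSL acetyltransferase complex, fell from 5.45 to 40.7 RPKM (median 23.1) to 2.77 to 8.5 RPKM (median 4.27), with overlap (-1.93 ± 0.45, adjusted p = 0.0346). Dnmt3b lost its call without any of 5 single libraries and Msl2 of 10. The 33 histone methyltransferases and demethylases had no call and a median of -0.05. Setdb2, an H3K9 methyltransferase, had 8.71 to 44.8 and then 0.912 to 15.1 RPKM (-1.95, adjusted p = 0.0893), and Kdm3a, an H3K9 demethylase, 1.46 to 5.55 and then 6.86 to 16.3 RPKM, higher in every 8-cell library (1.45, adjusted p = 0.0901). The 13 genes whose imprint depends on the histone mark H3K27me3 had no call and a median of 0.51, with 10 higher. Epas1 changed by 1.58 (adjusted p = 0.107) and Mbnl2 by 2.03 (adjusted p = 0.155).

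The last lists were splicing, histones, motors and the donor markers. The share called was 1.52% of the spliceosome genes and 0% of the others, beside 1.89% of all tested genes. Of 66 spliceosome genes (median -0.22), Cdc5l, a core component, rose from 17.7 to 84.0 RPKM (median 49.4) to 87.5 to 246 RPKM (median 144), with all 8-cell embryos above all 4-cell embryos (1.73 ± 0.40, adjusted p = 0.0327). It lost the call without any of 6 single libraries. Of 53 replication-dependent histone genes, whose RNA has no poly(A) tail, 6 were tested and none was called (median -0.14, Hist1h3g at -1.12 and Hist1h1c at 0.64, adjusted p = 0.439 and 0.551). The 20 tested kinesins had no call (median -0.10, Kif17 at -1.69 with adjusted p = 0.230, Kif5c at -1.50 with adjusted p = 0.276). The donor markers had 2 tested genes each and no call, with Amhr2 at -1.46 (adjusted p = 0.276), Kitl at 0.97 (adjusted p = 0.506), Twist2 at 1.04 (adjusted p = 0.398) and Dcn at -0.59 (adjusted p = 0.723).

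**Figure D3:**
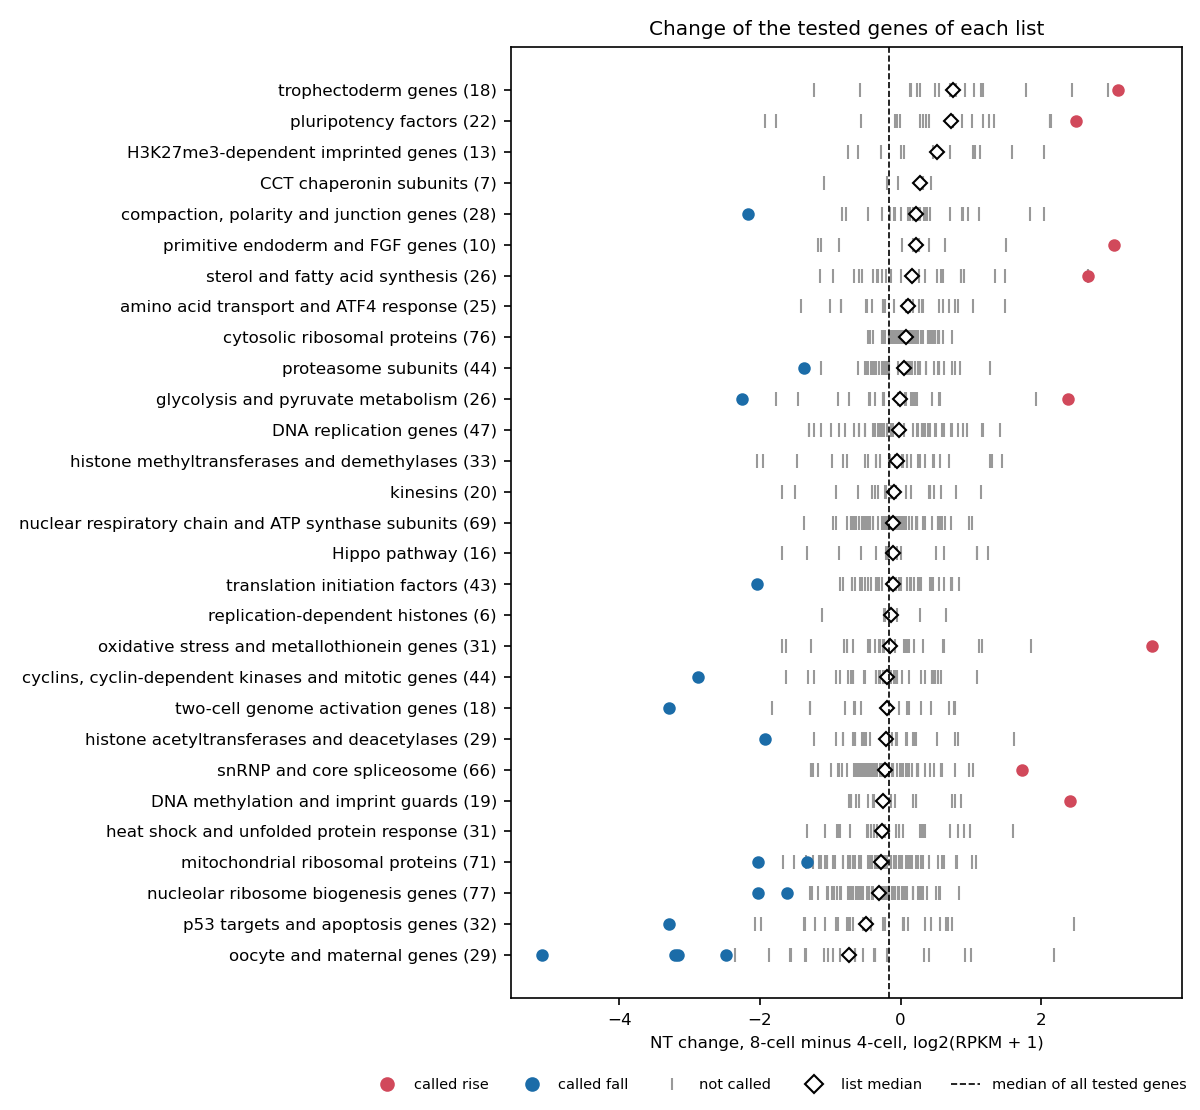
Change from the NT 4-cell to the 8-cell stage for each tested gene of the lists with at least 6 tested genes (x axis, log2(RPKM + 1) difference; number tested in brackets), with list medians as diamonds and the median of all tested genes as a dashed line at -0.17. Trophectoderm genes (0.74) and pluripotency factors (0.72) lie to the right and oocyte and maternal genes (-0.74) to the left.

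NTC and NTM embryos were then compared in how they changed. The interaction of NT type with stage in limma gave no gene at an adjusted p under 0.05 (lowest 0.216), and 686 genes at an unadjusted p under 0.05. With one fit over all 20 groups, 97 genes were called. The median standard error of this difference was 0.97 on the log2 scale, so a difference of 2-fold between the types is about 1 standard error. Of the 191 called genes, 69 had the larger change in NTC and 122 in NTM. This split was not counted over all tested genes, and nothing is read from it. Bcl2l10 changed by -4.74 in NTC and by -1.86 in NTM, Mir8091 by 2.03 and 5.44, Csrp1 by 2.25 and 4.73, and Nanog by 3.39 and 1.6. Among all called genes, the lowest adjusted p of that difference was 0.270.

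Whether the calls mark a lasting change was read from stages that the test did not use. From the NT 2-cell stage to the NT morula, 66 of the 70 rises were higher (53.3% of all tested genes were) and 88 of the 121 falls were lower (45.4% of all). From the 1-cell stage to the blastula, 65 rises were higher (53.7% of all) and 82 falls lower (43.7% of all). The median level of the rises over the genes, on the log2(RPKM + 1) scale, was 0.08 to 1.30 in NT 2-cell libraries and 3.73 to 4.63 in NT morulas. That of the falls was 4.84 to 5.76 at the 2-cell stage and 1.63 to 2.22 in morulas. Not every rise was low before the 4-cell stage. Csrp1 had 2-cell means of 82.6 (NTC) and 81.6 RPKM (NTM), and Dab2 of 26.5 and 25.8 RPKM. Stard4 had 1-cell means of 11.6 and 6.52 RPKM.

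The falls had different histories. The 88 that were lower in the morula than at the 2-cell stage did not all fall at each step. Btg4 had mean levels of 5218 (NTC) and 10680 RPKM (NTM) at the 2-cell stage and 1.08 and 0 in morulas, Bcl2l10 had 7319 and 9601 and then 1.44 and 0.697, and Obox5 had 1582 and 2112 and then 0.288 and 0. Mcrip1 is also among the 88, but was at 4.01 and 1.44 RPKM at the 2-cell stage, at a median of 17.5 RPKM in 4-cell embryos and at 0.679 and 0.739 RPKM in morulas. The other 33 were not lower in the morula than at the 2-cell stage. Ripk3 was at 0 and 0.0224 RPKM in NTC and NTM 2-cell embryos, at a median of 23.3 RPKM at the 4-cell stage and at 0.147 and 0.858 RPKM in morulas. Ccdc85b was at 1.01 and 0 RPKM before its 4-cell level of 8.93 RPKM. Mrpl36 was at 3.42 and 0.383 RPKM before, at 181 RPKM in 4-cell embryos and still at 94.7 and 54.0 RPKM in morulas. The 4-cell libraries are the same on both sides of such a peak.

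**Figure D4:**
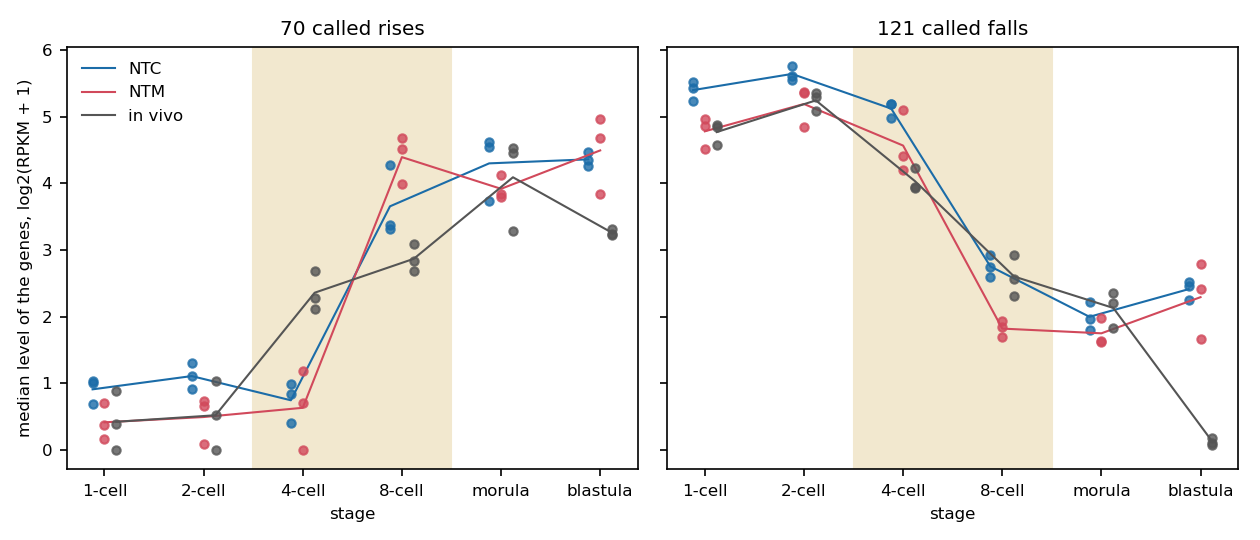
Median level of the 70 called rises (left) and 121 called falls (right) in each library over 6 stages, on the log2(RPKM + 1) scale, with 1 point per library and lines through the mean of 3 libraries per embryo type. The shaded 4-cell and 8-cell stages chose the genes in NT embryos, and the other stages and the in vivo libraries did not.

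The in vivo embryos show what the same genes did without nuclear transfer and culture. Of the 70 rises, 48 were higher at the in vivo 8-cell than 4-cell stage, where 22.1% of all tested genes were, and 99 of the 121 falls were lower, where 75.2% of all were. Tested in the in vivo libraries alone, 16 of 66 rises also rose and 6 fell, and 59 of 118 falls also fell and 2 rose, beside 420 rises and 3410 falls among 8376 tested genes. The NT libraries are the same in this comparison and in the calls above. The direct test of NT change minus in vivo change called 2339 of 10485 genes (22.3%), 2085 with the more positive and 254 with the more negative change in NT embryos. The median of this difference over all genes was 0.80, and the mitochondrial share of the in vivo libraries moved with it, from 10.7 to 15.9% up to 50.9 to 62.4%. Its part in the result was not tested. With median-ratio scaling the median was 0.30 and the split 1117 to 547.

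The NT values that chose the called genes also enter this difference, so its split among them is a description from which nothing is read. Of the 70 rises, 26 had a more positive change in NT than in vivo and 2 a more negative one, or 14 and 2 after median-ratio scaling. Of the 121 falls, 26 had a more negative and 6 a more positive change, or 40 and 1 after that scaling. Among the lineage genes, Krt18 rose in NT embryos and was at 3.02 to 3.74 RPKM and then at 0.862 to 2.50 RPKM in vivo, a difference between the changes of 3.82 ± 1.03 (adjusted p = 0.0117). Spic was already high in vivo, at 301 to 434 RPKM in 4-cell and 97.3 to 149 RPKM in 8-cell embryos, while NT embryos came up from 4.13 to 46.3 RPKM at the median (4.68 ± 1.07, adjusted p = 0.00390). Nanog was at 7.50 to 17 RPKM and then 1.38 to 22.2 RPKM in vivo, where NT 4-cell embryos had 0 to 3.87 RPKM, and the difference of 2.78 ± 1.06 missed the threshold (adjusted p = 0.0684). Akr1c14 had 0 RPKM in each in vivo 4-cell library and 0 to 0.964 RPKM in the 8-cell ones (3.51 ± 1.03, adjusted p = 0.0192).

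For several falls, chosen by their NT values in the same way, the NT change was the more negative one. Btg4 had 18.7 to 37.0 RPKM in 4-cell and 9.07 to 42.6 RPKM in 8-cell embryos in vivo, while NT 8-cell embryos had a median of 0 (difference of the changes -4.38 ± 1.10, adjusted p = 0.00766). Oog1 had 2.54 to 4.53 and then 0.761 to 14.3 RPKM in vivo (-3.91 ± 1.13, adjusted p = 0.0183), Bcl2l10 5.27 to 7.79 and then 4.39 to 26.5 RPKM (-3.87 ± 0.91, adjusted p = 0.00476), and E2f5 13.1 to 14.5 and then 22.9 to 40.6 RPKM (-3.88 ± 1.04, adjusted p = 0.0117). The in vivo mean was higher at the 8-cell stage for Oog1, Bcl2l10 and E2f5 and lower for Btg4. Ppan had the larger drop in vivo, from 55.2 to 113 RPKM to 2.96 to 8.38 RPKM (2.11 ± 0.62, adjusted p = 0.0199).

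The largest differences from the in vivo step were in genes with low levels at both stages of NT embryos. Uqcr10, a small subunit of respiratory complex III, was at 2100 to 2361 RPKM in in vivo 4-cell and 2.66 to 11.1 RPKM in in vivo 8-cell embryos, and at 2.87 to 16.5 and then 2.55 to 9.60 RPKM in NT embryos (8.56 ± 0.69, adjusted p = 5.23e-07). Mt2, a metallothionein, had 753 to 968 and then 1.38 to 2.17 RPKM in vivo, and 0.780 to 20.2 and then 0.842 to 4.08 RPKM in NT embryos (7.51 ± 0.84, adjusted p = 5.75e-06). The histone genes Hist1h2ap and Hist1h4d were at 317 to 1248 and 223 to 426 RPKM in in vivo 4-cell embryos, and at 0 to 4.10 and 0 RPKM in in vivo 8-cell embryos. In NT embryos Hist1h2ap stayed within 0 to 1.91 RPKM, and Hist1h4d was listed at 0 in all 12 libraries (differences 7.78 ± 0.78 and 8.16 ± 0.48). All 4 differences rest on the high levels of the in vivo 4-cell libraries.

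**Figure D5:**
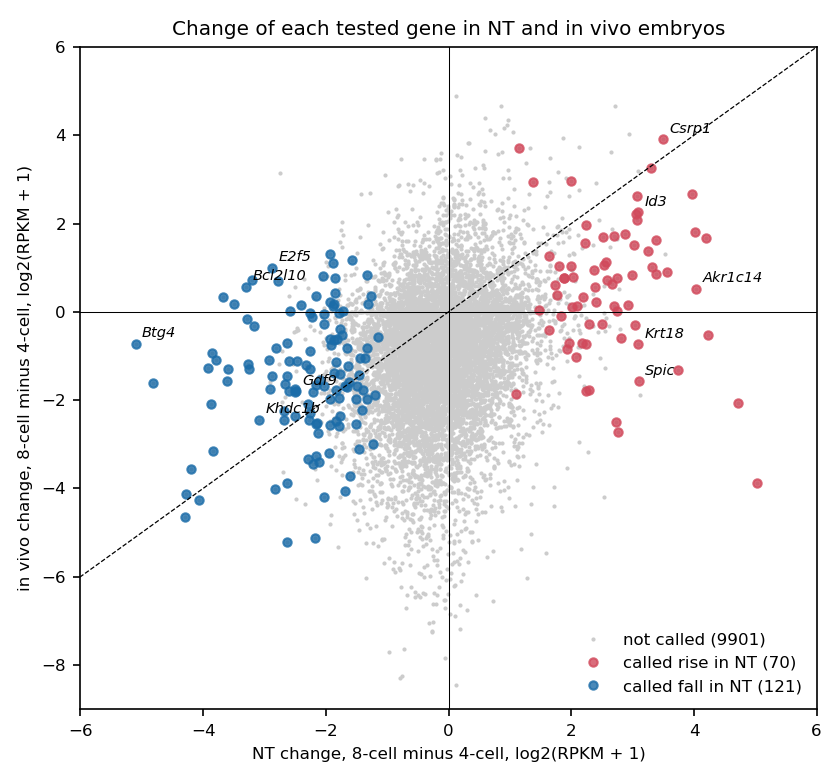
Difference between 8-cell and 4-cell embryos for each of the 10092 tested genes, in NT embryos (x axis) and in vivo embryos (y axis), both as log2(RPKM + 1) differences, with called rises in red, called falls in blue and the line of equal change dashed. Most grey points lie below 0 on the y axis, where 75.2% of all tested genes were lower in vivo.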

How the data were processed

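Single embryos were lysed, their cDNA was tailed and amplified without molecular identifiers, and 60 libraries were sequenced. The authors deposited 1 table of RPKM values for 27238 genes, which the methods call FPKM. They describe mapping with TopHat and counting with HTSeq, and the submitters' processing notes name the build mm8 and Bowtie 0.12.2. The strand setting of the counting is not given in the sources used here.

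The deposited RPKM values were analysed as log2(RPKM + 1) with limma 3.58.1 in R 4.3.3 (lmFit, eBayes with an intensity trend). Only the 12 NT libraries entered the main fit, with NT type as a covariate. The filter was a mean of at least 0.5 RPKM, and calls needed a Benjamini-Hochberg adjusted p under 0.05 and a log2 change of at least 1. A change on this scale understates that of low genes. Further fits tested NT type by stage (12 libraries) and NT change minus in vivo change (18 libraries). Chromosomes came from GENCODE M21 by gene ID, and its exon lengths gave the reads behind each value. The main fit was tested on 12 simulated libraries, with known changes in genes above a minimum mean level. It called 3 of 50 genes changed by 1 on the log2 scale (6%) and 22 of 50 changed by 2 (44%). Of those changed by 3 and by 4 it called 45 of 50 each (90%), with 4 false calls in all. A gene that was not called may therefore still have changed. The further fits were not simulated. Values per library were compared by exact permutation within NT type in Python 3.11.15 (numpy 2.4.6, pandas 2.3.3, scipy 1.17.1, matplotlib 3.10.9).

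The comparison, the 31 gene lists and the donor markers were chosen with earlier results of these data known. Named genes are the 12 largest rises and falls with an approved symbol and the same sign in both types, up to 4 called members of each list (or the 2 with the lowest p where none was called), and the 4 largest differences from the in vivo change. Alternatives were other pseudocounts, filters, scalings, covariates, variance priors and depths, and leaving out libraries. The fit without the 2 libraries that stood apart was added after the data had been seen.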

Additional observations from a re-analysis of the deposited data

Results flagged for a closer look

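Some named genes had 1 embryo far from the other 5 of its stage (Dixon's test on the log2 scale, critical value 0.625). This was so in 14 of 88 groups tested, which include the mitochondrial share and the genes detected, tested without a log scale. The usual rate of about 1 in 20 holds for normal values. Several flagged groups lie near 0 RPKM, so nothing is read from the number flagged. NTM 4-cell replicate 1 was the single embryo in 5 of the 14. It had 5.48 RPKM of Akr1b8, 3.85 RPKM of Akr1c14 and 29.2 RPKM of Ldhb, above all other 4-cell embryos, and 0.205 RPKM of Ripk3 and 0.0897 RPKM of Mcrip1, below all others. On the first principal component this embryo lay at 12.3, while the other 4-cell embryos lay at -59.0 to -34.2 and the 8-cell embryos at 4.94 to 55.6. Without it 240 genes were called.

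NTC 8-cell replicate 1 was the highest of its stage for Btg4 (10.8 RPKM), Bfsp1 (5.18 RPKM) and Ccdc85b (2.92 RPKM), and NTC 8-cell replicate 2 for Mcrip1 (6.75 RPKM). NTM 4-cell replicate 2 was the highest for Obox5 (52.4 RPKM), and NTM 8-cell replicate 3 was the highest of its own stage for that gene (2.60 RPKM). NTM 4-cell replicate 3 stood out for Smpdl3a (0.788 RPKM) and Nppb (0.486 RPKM), and NTC 4-cell replicate 1 for Mir8091 (0.754 RPKM). The nearest values of the stage were 0.0991 RPKM for Smpdl3a and 0 for Nppb and Mir8091.

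The change from the 4-cell to the 8-cell stage differed between NT and in vivo embryos for 2339 genes by the limma test of the difference. The named rises and falls were chosen by NT values that also enter this difference. Among the named rises, the NT change was the more positive one by 5.06 (Mir8091), 4.68 (Spic), 3.82 (Krt18), 3.51 (Akr1c14) and 2.51 (Cyp2s1) on the log2 scale. Among the named falls, it was the more negative one by -4.38 (Btg4), -3.91 (Oog1), -3.88 (E2f5), -3.87 (Bcl2l10), -3.68 (Bfsp1), -3.13 (Obox5), -2.53 (Rdx), -2.15 (Msl2) and -2.09 (Hexdc), while Ppan had a difference of 2.11. Uqcr10 (8.56), Hist1h4d (8.16), Hist1h2ap (7.78) and Mt2 (7.51) had the largest differences. The median of all genes was 0.80, and the mitochondrial share went from 10.7 to 15.9% up to 50.9 to 62.4% in the in vivo libraries. Its part in these differences was not tested.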

How the results depend on the processing

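The 191 calls of the pooled comparison were chosen by large changes in the same NT libraries. Nothing is therefore read from their sign, which held in every setting that tested them. Their number was 77 without a filter on low values (more genes tested), 732 with one fit over all 20 groups, 5 with the NTC and 39 with the NTM libraries alone (fewer samples), 124 without the pair of libraries that stood apart, and 80 to 240 when each library was left out. It was more than 1.5 times lower without NTC 4-cell replicate 2 (117) or 3 (88) and without NTM 8-cell replicate 1 (103), 2 (80) or 3 (112). Pseudocount, stricter filter, scaling, all chromosomes, no type term, no fold threshold, no trend and thinned reads gave 145 to 246. Of the 42 named genes called, 34 remained called after median-ratio scaling, 17 without a filter, 23 without the 2 libraries that stood apart, 10 within NTM and 0 within NTC.

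NTC against NTM gave 0 calls, 2 with a pseudocount of 0.1, 97 with one fit over all 20 groups and 0 to 1 with a library left out (1 without NTC 4-cell replicate 2 or NTM 8-cell replicate 3). The cause was not tested. NT against in vivo gave 1664 to 2539 calls, and 1759 to 2684 with a library left out. The difference in mitochondrial share was 2.56 to 5.14 with a library left out, and its exact p was 0.04 without NTC 8-cell replicate 1. The difference in genes detected was 535 to 1065, with exact p = 0.035 without NTC 8-cell replicate 3, and -34.7 genes (exact p = 0.915) when detection meant at least 1 RPKM.

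The same replicate number did not pair samples: deviations of same-numbered 4-cell and 8-cell embryos correlated at -0.10 to 0.00. A replicate block gave 146 calls (62 rises, 84 falls, 135 of the 191) in the pooled comparison, 0 for NTC against NTM and 2234 for NT against in vivo. It left the difference in mitochondrial share at 3.94 (exact p = 0.281) and that in genes detected at 820 (exact p = 0.188). Values under the reads' limit of 0.0585 to 0.261 RPKM cannot be told from 0.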

Other observations

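The X chromosome was outside the main comparison and was read in a fit of all chromosomes. Of 358 tested X-linked genes 3 rose and 6 fell, and their median change was -0.13. Amot, a regulator of the Hippo pathway known as angiomotin, had medians of 0.00580 RPKM in NT 4-cell and 3.34 RPKM in NT 8-cell embryos (2.01 ± 0.40, SE, adjusted p = 0.0161 by limma). Xist, the RNA of X inactivation, had medians of 0.0188 and 5.34 RPKM (2.35 ± 0.49, adjusted p = 0.0189). The cumulus donors were female, and the sex of the fibroblast donors is not given. The Xist medians pool both NT types, and the part of embryo sex in them was not tested. The amino acid transporter Slc6a14 had medians of 0 and 7.10 RPKM (2.28 ± 0.56, adjusted p = 0.0477). The falls were Fam122b, from a median of 44.9 to 4.53 RPKM (-3.15 ± 0.55, adjusted p = 0.00798), Gm5946, Nkrf, Zrsr2, Hmgb3 and Timm8a1. These names were chosen after their values were seen. Of 14 tested mitochondrial genes none was called, with a median change of -0.40, and of 4 Y-linked genes none was called.

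For 3 named falls that were low at the 2-cell stage, mean 4-cell levels of NT and in vivo embryos can be set side by side. These genes were chosen by NT 4-cell values above NT 8-cell ones. That favours high NT 4-cell levels, so nothing is read from the difference. Ripk3 had a mean of 21.2 RPKM in NT 4-cell embryos, and means of 1.53 RPKM at the in vivo 4-cell and 0.176 RPKM at the in vivo 8-cell stage. Mcrip1 had a mean of 17.9 RPKM in NT 4-cell embryos, and means of 1.46 and 0 RPKM in vivo. Ccdc85b had a mean of 12.8 RPKM in NT 4-cell embryos, and means of 2.70 and 0 RPKM in vivo.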
